A study of Mus musculus with 90 samples.

Results

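The liver libraries of a mouse estrous cycle series were compared between estrus and diestrus, to separate expression shared by all mice of a phase from expression particular to single animals. The members were the 6 liver libraries of the 90 in the series, 3 per phase, taken by the tissue and phase in their labels. All mice were wildtype C57BL/6 females by the labels (C57BL/6J in the methods of the study) without treatment. They were 10 weeks old by the labels, while the methods of the study give another age. The phase of each mouse was read from methylene blue-stained vaginal smears, with serum estrogen and progesterone measured in the study as an aid. The mRNA was sequenced on a BGISEQ-500. Expression was deposited as FPKM, the fragments of a gene divided by its transcript length and by the depth of the library. The study describes 3 mice per phase as biological replicates, but the labels do not say which libraries of other tissues came from the same mouse.

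Estrogen peaks in proestrus, shortly before ovulation and estrus, and diestrus is the later phase in which the corpora lutea release progesterone. The liver carries estrogen receptor alpha and is a sex-dimorphic organ: the pulse pattern of growth hormone, read through Stat5b, sets many cytochrome P450, sulfotransferase and major urinary protein genes to a female or a male level. It also runs a strong circadian clock, and feeding sets its cholesterol, fatty acid and amino acid metabolism.

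The 6 libraries were of like depth, approximately 17.0M to 17.4M reads each as judged from the smallest steps of the values. The tissue matched its label. Albumin (Alb), the main secreted product of hepatocytes, lay between 40374 and 57329 FPKM, 12 of 12 hepatocyte markers passed the filter on low values, and kidney tubule markers summed to at most 0.11 FPKM. Libraries of the same phase were no more alike than libraries of different phases, with a mean Pearson correlation across genes of 0.983 in both cases. Estrus replicate 1 stood apart. Its mean correlation with the other 5 libraries was 0.977, against 0.983 to 0.985 for the rest, and it alone made up most of the first principal component, which held 35.4% of the variance. Where leaving it out moved a named difference by more than 1.5 times, the value without it is given as well. Of the 10666 genes tested, 3402 (31.9%) had their lowest value in it. Blood cell RNA varied most within diestrus, where the summed level of 9 erythroid genes was 527, 116 and 1039 FPKM, and its part in the results was not tested.

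No gene was called as a DEG between estrus and diestrus. Of 10666 genes that averaged 1 FPKM or more, 0 (0%) passed an adjusted p of 0.05 in limma together with a difference of 1 or more on the log2 scale. The lowest adjusted p was 0.125. At an unadjusted p under 0.05 there were 267 genes higher (2.5%) and 330 genes lower (3.09%) in estrus, and after scaling each library by its median ratio these became 329 and 268, so the lean towards lower genes turned with the scale. One fit over all 90 libraries, which borrows its spread from the other tissues, called 7 liver genes, of which 6 are named beside their values. The liver fit gave each of these 6 an adjusted p of 0.811, and their SE below are from the liver fit. The SE of the fit of all libraries was smaller for all 6, so its adjusted p values do not measure the spread among livers. The 3 estrus and the 3 diestrus values did not overlap in 478 genes higher in estrus (4.48%) and 730 genes lower (6.84%), and after scaling in 594 and 628. With 3 mice against 3, the smallest p of an exact permutation test on a single gene is 0.1.

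Genes that separated the phases by at least 1 on the log2(FPKM + 1) scale were few. There were 58 genes with a fold change of that size, 31 higher and 27 lower in estrus. In 39 of them the phases overlapped, and in 19 all mice of a phase lay on the same side. These 19 were 7 genes higher (0.0656% of those tested) and 12 genes lower (0.113%) in estrus. Without estrus replicate 1, 34 of the 58 genes still differed by at least 1, and 11 of the 19 genes kept both criteria. The scale adds 1 FPKM to each value, so it understates the change of genes with low values.

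**Figure D1:**
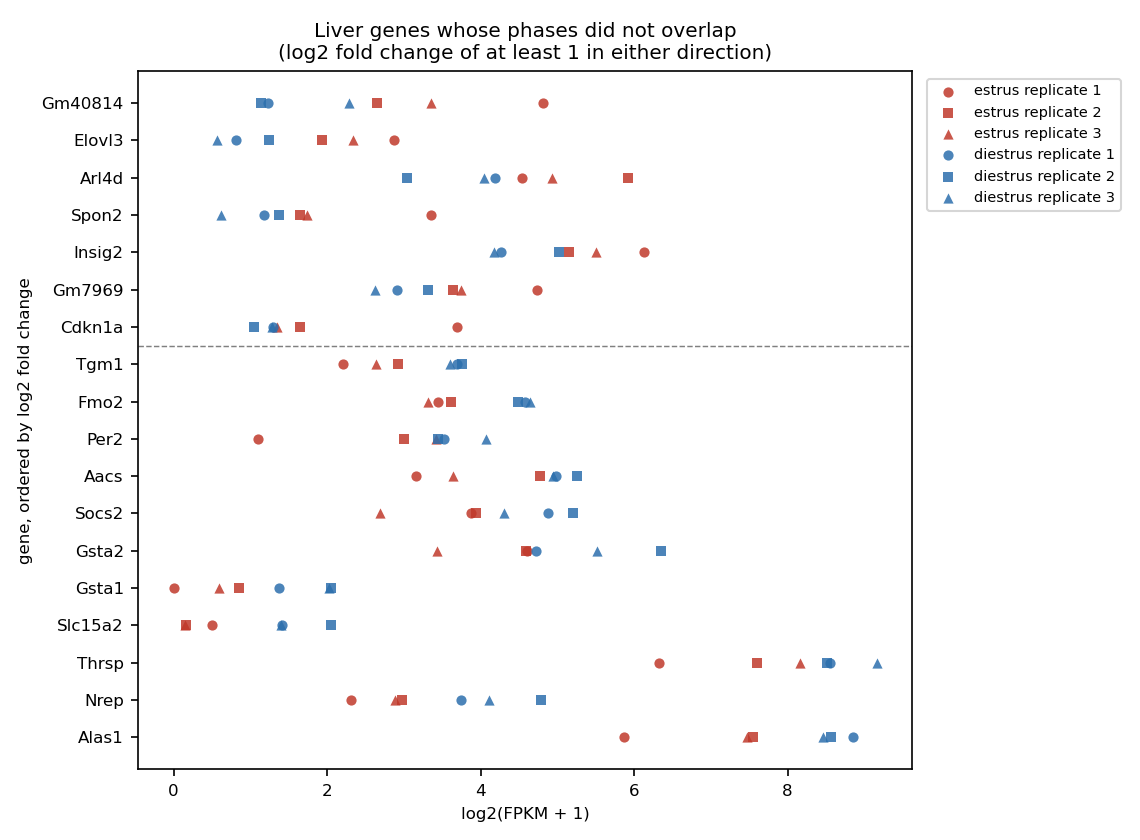
Expression of 18 of the 19 genes whose phases did not overlap and whose log2 fold change was at least 1, as log2(FPKM + 1) on the horizontal axis, with 1 point per library, red for estrus and blue for diestrus, and the marker shape giving the replicate. The 7 genes above the dashed line were higher and the 11 below it lower in estrus, and Cdkn1a and Per2 show estrus replicate 1 far from the other estrus libraries.

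The flavin-containing monooxygenases oxidize nitrogen and sulfur in drugs and dietary amines. Fmo2 stood at 9.9, 11.2 and 8.91 FPKM in the 3 estrus livers and at 22.9, 21.5 and 24.1 FPKM in the 3 diestrus livers. The phases lay far apart relative to the spread within each, and the log2 difference of -1.12 ± 0.10 (SE, 3 mice per phase) had the lowest adjusted p of all tested genes, 0.125. Differences are given as estrus minus diestrus with their SE throughout. Fmo1, another member with a female lean in mice, was at 148, 146 and 129.8 FPKM in estrus against 159, 179 and 162 FPKM in diestrus and separated the phases by a smaller step of -0.24 ± 0.09. Without estrus replicate 1 the differences of Fmo2 and Fmo1 were -1.11 and -0.27. Kidney, the comparison tissue, gave -0.25 for Fmo2 and -0.19 for Fmo1, and the difference between the tissues was not called for either gene (adjusted p = 0.999 for both in limma). Among other members, Fmo5 was at 149.6, 124 and 184 against 219.7, 161 and 292 FPKM (-0.53 ± 0.24) and Fmo4 differed by 0.01 ± 0.15, or -0.15 without estrus replicate 1, both with overlapping phases.

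Alas1, the rate-limiting enzyme of heme synthesis and so the supplier of heme to cytochrome P450 enzymes, also lay lower in estrus. It stood at 57.4, 186 and 176 FPKM in estrus and 461, 377 and 351 FPKM in diestrus. Estrus replicate 1 was the lowest, but the other estrus livers also lay below every diestrus liver. The log2 difference was -1.66 ± 0.43, or -1.11 without estrus replicate 1, and the fit of all libraries called it (adjusted p = 0.0142). Por, the reductase that passes electrons to P450 enzymes, was lower on average (-0.75 ± 0.22), though its phases overlapped at 133, 145 and 199 against 298, 195 and 315 FPKM.

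Of the glutathione S-transferases, which conjugate electrophiles, some separated the phases and others did not. Gsta4 was at 51.95, 46.99 and 40.98 FPKM in estrus and 59.4, 77.05 and 65.4 FPKM in diestrus (-0.52 ± 0.13), and Gstt2 at 31.6, 26.8 and 38.1 against 43.5, 45.7 and 53.7 FPKM (-0.56 ± 0.14). Neither pair of phases overlapped. Gstm1, an abundant member, was at 1881, 1429 and 987 against 1454, 1556 and 1495 FPKM, highest and lowest in estrus livers, and its phases overlapped (-0.12 ± 0.22, or -0.34 without estrus replicate 1). The phases did not overlap in Gsta1 and Gsta2, with differences of -1.33 ± 0.27 and -1.32 ± 0.47, but the pair is nearly identical in sequence, so that reads could be split between them, and Gsta1 was listed at 0 in estrus replicate 1. Over the 42 tested genes of xenobiotic metabolism, 0 lay higher and 5 (11.9%) lower in estrus without overlap, against 4.48% and 6.84% of all tested genes, with a median log2 fold change of -0.11 against -0.01 for all tested genes. The lean was not shared by all estrus mice. The list had its lowest value in estrus replicate 3 for 21 genes and in estrus replicate 1 for 6. Without estrus replicate 3 the median was 0.05, and without estrus replicate 1 it was -0.22.

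Lipid genes lay on both sides. Insig2, which holds the sterol sensor Scap in the endoplasmic reticulum, stood at 68.9, 34.7 and 44.5 FPKM in estrus and 18.3, 31.5 and 17.1 FPKM in diestrus. The separation was narrow at its closest, between estrus replicate 2 and diestrus replicate 2, and the log2 difference was 1.11 ± 0.31. The fit of all libraries called it (adjusted p = 4.32e-06). Hmgcs1, an early enzyme of cholesterol synthesis, was at 299.8, 150.2 and 133 FPKM in estrus and 95.2, 79.7 and 125 FPKM in diestrus, again without overlap (0.88 ± 0.32). Plin2, a coat protein of lipid droplets, was at 260.0, 149 and 156 against 104, 125 and 99.7 FPKM (0.73 ± 0.22). In all 3 genes estrus replicate 1 was the highest library, and without it the differences were 0.84, 0.52 and 0.48.

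On the lower side, Thrsp, an activator of lipogenesis also known as Spot 14, stood at 79.2, 194 and 287 FPKM in estrus and 374, 364 and 573 FPKM in diestrus. Its difference was -1.38 ± 0.45, or -0.86 without estrus replicate 1. Aacs, which returns ketone bodies to lipid synthesis, was at 7.95, 26.4 and 11.5 against 30.8, 37.4 and 29.7 FPKM (-1.202 ± 0.38). Both genes were lowest in estrus replicate 1 and did not overlap between the phases. The end enzymes of fatty acid synthesis did not separate: Fasn differed by -0.28 ± 0.21 and Scd1 by -0.06 ± 0.43, or -0.54 without estrus replicate 1, both with overlapping phases.

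In the cholesterol synthesis list, single animals held most of the extreme values. Of 29 tested genes, 3 (10.3%) were higher and 1 (3.45%) was lower in estrus without overlap, against 4.48% and 6.84% of all tested genes, and the median log2 fold change was 0.19. The 3 higher genes were Hmgcs1, Scap and Srebf2, and the lower was Stard4, a sterol carrier. Estrus replicate 1 held the highest value of 17 of the 29 genes and diestrus replicate 2 the lowest of 21. Without estrus replicate 1 the median was 0.04.

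Genes of amino acid catabolism lay lower in estrus by small steps. Of 39 tested genes, 11 (28.2%) were lower and 0 were higher in estrus without overlap, against 6.84% and 4.48% of all tested genes. A negative fold change was seen in 29 of 39, against 5855 of all 10666 tested genes. The median was -0.14, and that without estrus replicate 1 was -0.12. Of the urea cycle, Cps1, its entry enzyme, was at 502, 472 and 493 FPKM in estrus and 573, 574 and 609.9 FPKM in diestrus (-0.26 ± 0.07). Asl, which splits argininosuccinate, was at 211, 199 and 235 against 272, 287 and 364 FPKM (-0.51 ± 0.13). Nags, which makes the activator of Cps1, was at 25.4, 23.2 and 27.2 against 30.6, 30.6 and 32.1 FPKM (-0.29 ± 0.08). In all 3 genes every estrus liver lay below every diestrus liver, by steps well under the limit for a DEG. Ass1, also of the urea cycle, overlapped at 3486, 2468 and 2921 against 3171, 3586 and 3470 FPKM (-0.22 ± 0.14, or -0.34 without estrus replicate 1).

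The methionine cycle gave the same order in 3 enzymes. Ahcy, which hydrolyses S-adenosylhomocysteine, was at 413, 463 and 423 FPKM in estrus and 543, 552 and 596 FPKM in diestrus (-0.38 ± 0.08). Gnmt, the glycine methyltransferase, was at 1334, 1264 and 1225 against 1414, 1748 and 1500.0 FPKM (-0.28 ± 0.10), and Mat1a, which makes S-adenosylmethionine, at 817, 889 and 1013 against 1014, 1060.3 and 1078 FPKM (-0.22 ± 0.10). For Mat1a the closest values of the phases differed by less than 1 FPKM. The transaminases Got1 and Gpt differed by -0.52 ± 0.13 and -0.32 ± 0.13, and Hpd, Aass and Prodh2, enzymes of tyrosine, lysine and hydroxyproline breakdown, by -0.22 ± 0.08, -0.28 ± 0.09 and -0.14 ± 0.07. The highest value of the 39 genes lay in diestrus replicate 2 or replicate 3 for 15 and 12 genes. Genes on the other side with overlapping phases included Bhmt, betaine-homocysteine methyltransferase, at 1812, 1121 and 789 FPKM in estrus and 768, 911 and 717 FPKM in diestrus (0.56 ± 0.29, or 0.24 without estrus replicate 1). In kidney, the tested genes of this list had a median of -0.01.

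Hormone receptors hardly differed. Esr1, the liver's main estrogen receptor, was at 6.29, 4.85 and 4.08 FPKM in estrus and 5.33, 5.05 and 7.15 FPKM in diestrus (-0.18 ± 0.17). Pgr, the progesterone receptor, was at no more than 0.02 FPKM in any library and did not pass the filter on low values. Ghr, the growth hormone receptor, differed by -0.06 ± 0.10 and Prlr, the prolactin receptor, by -0.08 ± 0.08. A feedback inhibitor and a transducer of growth hormone signalling did separate the phases. Socs2, the inhibitor, which Stat5b induces, stood at 13.7, 14.3 and 5.44 FPKM in estrus and 28.6, 35.96 and 18.8 FPKM in diestrus (-1.30 ± 0.38), lower in all estrus livers. Stat5b itself was at 15.02, 11.9 and 12.2 against 8.85, 11.4 and 8.44 FPKM, higher in all estrus livers (0.41 ± 0.14). Cish, another Stat5 target, was at 5.47, 12.6 and 5.7 against 8.49, 22.9 and 15.5 FPKM and overlapped (-0.89 ± 0.40), and Igf1, the growth factor that growth hormone induces, differed by -0.13 ± 0.10. The differences of Esr1, Ghr and Igf1 without estrus replicate 1 were -0.32, -0.09 and -0.22. Of the 22 tested genes of the list, whose median was near 0, Stat5b and Socs2 were the only genes without overlap. That was 4.55% higher and 4.55% lower in estrus, against 4.48% and 6.84% of all tested genes.

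The medians of the sex-biased lists leaned towards the male side in estrus. Of 31 tested female-biased genes, 6 were lower and 1 higher in estrus without overlap (19.4% and 3.23%), against 6.84% and 4.48% of all tested genes, with a median of -0.29. Of 28 tested male-biased genes, 2 (7.14%) were higher and 0 lower, with a median of 0.28. The lower female-biased genes included Fmo1, Fmo2, Cyp2b13, Slc22a26 and Tox, and the higher was Cyp2c69. Cyp2b13, a steroid-metabolizing P450, was at 157, 103 and 157 FPKM in estrus and 193, 217 and 175 FPKM in diestrus (-0.50 ± 0.18). The male-biased genes without overlap were Elovl3 and Selenbp2. Elovl3, an elongase of very long fatty acids, stood at 6.35, 2.83 and 4.04 FPKM in estrus and 0.75, 1.37 and 0.48 FPKM in diestrus. All estrus livers were above all diestrus livers, by 1.51 ± 0.27, or 1.26 without estrus replicate 1. The lean of both lists rested largely on estrus replicate 3: without it the medians were -0.06 and 0.04, while without estrus replicate 1 they were -0.22 and 0.24.

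Some of the most variable sex-biased genes did not follow the phase. Cyp3a41a, a female-specific P450, was at 3.51, 1236 and 48.6 FPKM in the 3 estrus livers and 734, 69.7 and 476 FPKM in the 3 diestrus livers. Sult2a1, a hydroxysteroid sulfotransferase, was at 5.48, 413 and 2.07 against 92.2, 10.9 and 96.9 FPKM, and Cyp3a16 at 0.14, 132 and 0.61 against 45.1, 2.04 and 18.01 FPKM. In all 3 genes estrus replicate 2 and diestrus replicates 1 and 3 were the 3 highest libraries. Of the male-biased list, 3 male-specific genes gave the mirror image. Hsd3b5, a steroid reductase, was at 5.14, 0.67 and 5.1 FPKM in estrus and 0.85, 5.69 and 0.61 FPKM in diestrus, and Cyp4a12a, an arachidonic acid hydroxylase, at 3.25, 0.02 and 1.94 against 0.02, 1.37 and 0.02 FPKM. Slco1a1, an organic anion transporter, was at 32.5, 3.7 and 36.9 against 18.5, 18.9 and 8.48 FPKM. In these genes the same 3 libraries were the lowest. The phases overlapped in all 6 genes, and the SE of their log2 differences was 0.57 or more. These 6 genes were picked after their values were seen, and the 3 male-specific genes were not the most variable of their list. Mup1, with an SE of 1.06, was at 1.95, 21.02 and 11.4 against 2.29, 31.4 and 2.74 FPKM, and gave no mirror image.

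**Figure D2:**
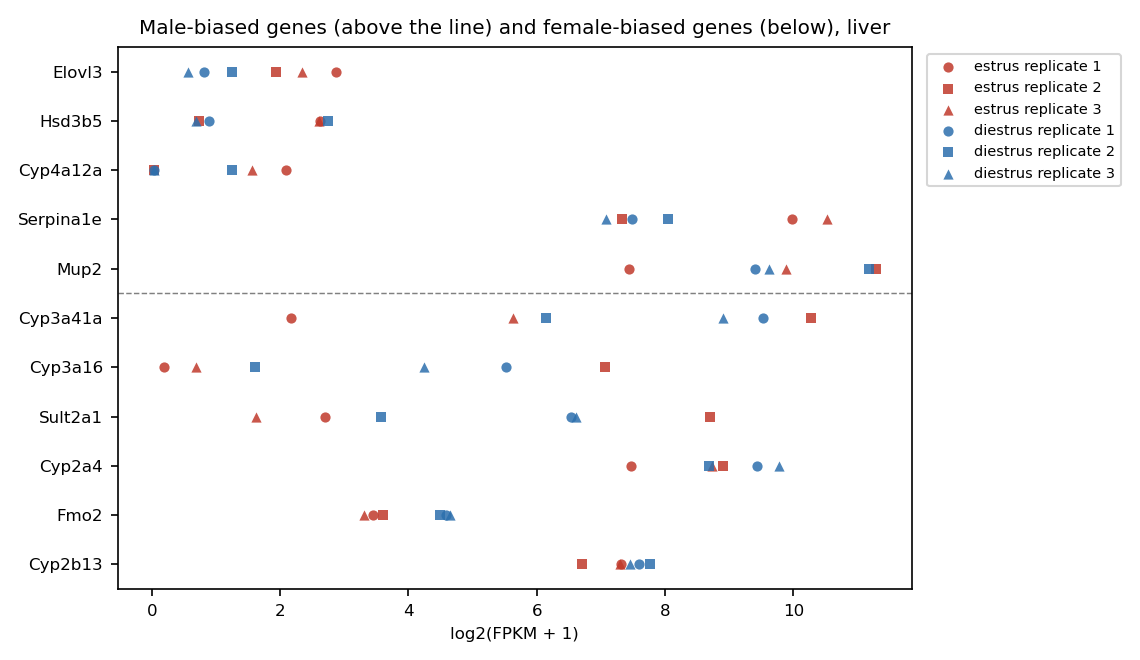
Expression of 5 male-biased genes (above the dashed line) and 6 female-biased genes (below it) as log2(FPKM + 1), with 1 point per library, red for estrus and blue for diestrus, and the marker shape giving the replicate. Elovl3, Fmo2 and Cyp2b13 separate the colours, while Hsd3b5, Cyp4a12a, Cyp3a41a, Cyp3a16 and Sult2a1 split both phases.

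Major urinary proteins, pheromone carriers with a male bias, varied along yet another order. The summed level of the 22 genes was 11258, 37531 and 24533 FPKM in estrus and 16984, 42266 and 14899 FPKM in diestrus. Estrus replicate 2 and diestrus replicate 2 were the highest libraries. The phases were separated by 0 of the 20 tested genes, against 4.48% higher and 6.84% lower of all tested genes. The median was 0.08 over all libraries and 0.52 without estrus replicate 1, which held the lowest value of 11 genes. These genes are near-identical copies, so levels of single members are uncertain.

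Of the 25 gene lists, that of clock genes of the Dbp phase had the median farthest from 0, and it varied more within estrus than between the phases. These genes, which normally peak late in the light period in mouse liver, had a median log2 fold change of -0.81 over 15 tested genes. The fold change was negative in 13 of the 15, against 5855 of all 10666 tested genes. Of the 15, 1 gene, Per2, separated the phases (6.67% lower and 0% higher, against 6.84% and 4.48% of all tested genes). Dbp, a D-box-binding activator, was at 0.98, 44.04 and 127 FPKM in estrus and 126, 85.2 and 127 FPKM in diestrus (-2.32 ± 1.39, or -0.56 without estrus replicate 1). Estrus replicate 1 was nearly without it, estrus replicate 2 was between, and estrus replicate 3 was like diestrus. Ciart, a clock repressor, was at 0.31, 1.08 and 18.2 against 31.1, 10.9 and 38.3 FPKM, and Usp2, a deubiquitinase, at 0.95, 3.96 and 20.99 against 28.9, 14.8 and 42.4 FPKM. The same order of the 3 estrus livers held in both. Per2, a core repressor, was at 1.15, 7.01 and 9.66 FPKM in estrus and 10.5, 9.9 and 15.8 FPKM in diestrus, with estrus replicate 3 just under the lowest diestrus liver (-1.17 ± 0.57, or -0.47 without estrus replicate 1).

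Estrus replicate 1 had the lowest value of 13 of the 15 genes, and diestrus replicate 3 the highest of 12. The list's median deviation from the mean of the 6 livers was -1.27 in estrus replicate 1, -0.16 in replicate 2 and 0.34 in replicate 3, and 0.43, 0.25 and 0.80 in diestrus replicates 1 to 3. Without estrus replicate 1 the median fold change was -0.43, and without estrus replicate 3 it was -1.18. The hour at which each mouse was killed was not given in the sources used here, and its part in these values was not tested. Arntl (Bmal1), the activator of the opposite phase, was at 7.55, 1.38 and 0.68 FPKM in estrus and 0.34, 1.85 and 0.37 FPKM in diestrus, and Nfil3, a repressor of D-box genes, at 16.5, 5.32 and 3.43 against 3.13, 5.84 and 4.66 FPKM. Both were highest in estrus replicate 1, and without it they differed by 0.20 and -0.04, against 0.90 and 0.54 with it. Of the 6 tested genes of the Bmal1-phase list, 3 were highest in estrus replicate 1 and 3 in diestrus replicate 3, and the median was 0.17, or -0.08 without estrus replicate 1. Ciart stands in both clock lists, and it was among the genes highest in diestrus replicate 3.

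In part of the other tissues estrus replicate 1 was again the lowest library. Among the 14 other tissues, the library labelled estrus replicate 1 had the lowest Dbp-phase median in 7, which were brown adipose tissue, cerebrum, heart, kidney, muscle, spleen and womb. In spleen the margin was small, with a median deviation of -0.19 against -0.18 in diestrus replicate 2. The 6 cerebrum libraries lay between -0.13 and 0.16. In kidney the fold changes of Dbp and Ciart were -1.95 and -2.19, against -2.32 and -2.72 in liver. Leaving out estrus replicate 1 gave -1.46 and -1.82 for the kidney, and -0.56 and -1.97 for the liver. The test of the difference between liver and kidney called 0 of 10097 genes (0%), with 121 higher and 210 lower at an unadjusted p under 0.05. In the other tissues the lowest library was diestrus replicate 1 or 2 or estrus replicate 2, and in ovary and vein estrus replicate 1 was the highest. The estrus replicate 3 library of brown adipose tissue listed 12048 genes at 0, against 4545 to 4820 in the others of that tissue, so its place is uncertain.

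**Figure D3:**
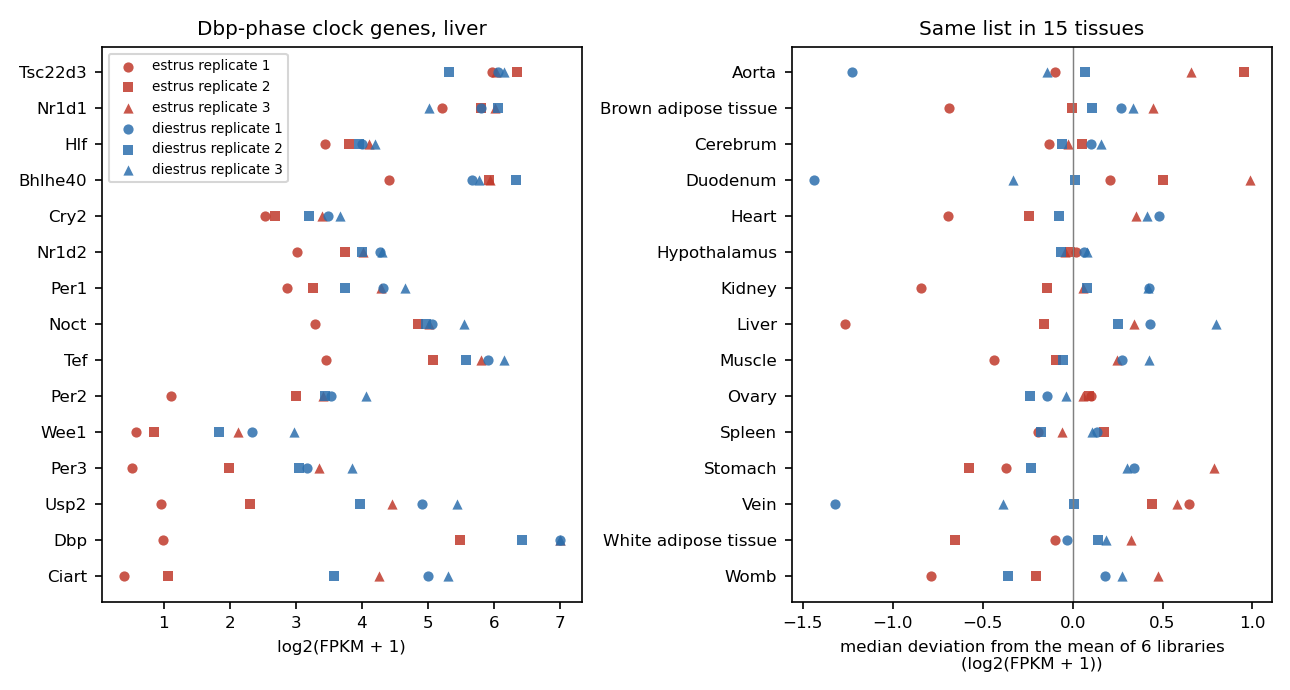
Left, expression of the 15 tested Dbp-phase clock genes in the liver as log2(FPKM + 1), and right, the median deviation of this list from the mean of the 6 libraries in each of 15 tissues, with 1 point per library, red for estrus and blue for diestrus, and the marker shape giving the replicate. Estrus replicate 1 is the lowest library for 13 of the 15 liver genes and in 8 of the 15 tissues.

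Promoter sequences are shown for the Dbp-phase clock genes whose window holds a clock motif, together with 2 genes of the phase comparison. The windows run from 250 bases before to 50 bases after a RefSeq gene start (GRCm38.p6), and 12 of the 15 Dbp-phase genes had 1. The E-box CACGTG, to which Bmal1 and Clock bind, lay in the windows of Ciart, Per1 and Tef, 3 of 12 genes (25%), against 12.0% of 8599 tested genes with a window and 7.15% of all 32851 windows. Among the other lists searched, E-box shares ran from 4.17% of female-biased to 40% of Bmal1-phase genes, with 26.3% of cholesterol synthesis genes. The D-box TTATGTAA, bound by Dbp, Tef, Hlf and Nfil3, lay in the window of Per3, 1 of 12 genes (8.33%), against 0.744% of the tested genes. The D-box share was 8.33% of female-biased and 8.70% of male-biased genes, and 0% in the other lists searched. Both strands were searched, and capitals mark the motif. In Ciart the E-boxes begin 116, 58 and 44 bases before the start, in Per1 166 bases and in Tef 127 bases, and in Per3 the D-boxes begin 205 and 158 bases before it. Of the Bmal1-phase list, Cry1, whose window is not printed, also held an E-box. A match is a run of letters and not a measured binding site.
Ciart, chr3:95882179-95882478, minus strand: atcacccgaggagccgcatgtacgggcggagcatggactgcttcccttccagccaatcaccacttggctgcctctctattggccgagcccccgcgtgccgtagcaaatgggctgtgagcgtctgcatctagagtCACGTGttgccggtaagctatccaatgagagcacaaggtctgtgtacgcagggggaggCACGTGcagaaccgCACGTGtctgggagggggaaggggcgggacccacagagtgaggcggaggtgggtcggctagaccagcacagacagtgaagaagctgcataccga
Per1, chr11:69098699-69098998, plus strand: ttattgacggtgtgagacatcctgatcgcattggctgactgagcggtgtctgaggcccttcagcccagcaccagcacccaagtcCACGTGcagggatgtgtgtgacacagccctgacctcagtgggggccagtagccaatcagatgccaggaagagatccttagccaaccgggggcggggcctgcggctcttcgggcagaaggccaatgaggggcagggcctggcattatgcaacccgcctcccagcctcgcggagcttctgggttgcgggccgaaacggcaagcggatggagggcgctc
Tef, chr15:81802423-81802722, plus strand: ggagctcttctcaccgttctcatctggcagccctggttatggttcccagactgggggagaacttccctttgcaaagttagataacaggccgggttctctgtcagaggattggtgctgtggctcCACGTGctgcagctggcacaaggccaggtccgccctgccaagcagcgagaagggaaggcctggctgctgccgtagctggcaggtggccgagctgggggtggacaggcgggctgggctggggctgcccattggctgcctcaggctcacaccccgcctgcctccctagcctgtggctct
Per3, chr4:151044616-151044915, minus strand: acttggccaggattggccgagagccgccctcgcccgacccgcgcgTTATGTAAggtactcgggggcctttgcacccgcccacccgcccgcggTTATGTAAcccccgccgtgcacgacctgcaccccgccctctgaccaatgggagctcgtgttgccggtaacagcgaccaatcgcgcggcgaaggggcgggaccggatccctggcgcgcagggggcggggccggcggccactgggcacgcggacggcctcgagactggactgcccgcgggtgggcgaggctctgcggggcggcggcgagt

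The clock genes whose windows are printed, Ciart included, had their lowest value in estrus replicate 1. So did 13 of the 15 tested genes of the whole Dbp-phase list, so the feature was not particular to genes with a motif. Per1 was at 6.26, 8.61 and 18.6 FPKM in estrus and 19.01, 12.4 and 24.2 FPKM in diestrus, Tef at 10.0, 32.8 and 55.1 against 58.9, 46.8 and 69.8 FPKM, and Per3 at 0.43, 2.96 and 9.2 against 7.95, 7.24 and 13.5 FPKM. In each, estrus replicate 1 was the lowest and estrus replicate 3 lay within the range of diestrus. Without estrus replicate 1 the differences were -0.46, -0.43 and -0.68, against -0.77, -1.09 and -1.40 with it.

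For the phase comparison itself, 12 of the 19 genes that separated the phases had a window. Of these, 0 held an E-box, 0 a D-box and 0 the estrogen response element, searched as GGTCA and TGACC with 3 bases between. The last was in 0 of the 8599 tested genes and in 23 of all windows (0.07%), so its absence says nothing about estrogen receptor binding. The sterol regulatory element CACCCCAC lay in 1 of the 12, Cdkn1a, and in 3.72% of the tested genes. It was also in the window of Hmgcs1, beginning 136 bases before the start and marked in capitals, and in all in 2 of 19 cholesterol synthesis genes with a window. The promoter of Fmo2, the gene with the lowest adjusted p, held none of the 4 motifs and is given in lower case.
Hmgcs1, chr13:119690101-119690400, plus strand: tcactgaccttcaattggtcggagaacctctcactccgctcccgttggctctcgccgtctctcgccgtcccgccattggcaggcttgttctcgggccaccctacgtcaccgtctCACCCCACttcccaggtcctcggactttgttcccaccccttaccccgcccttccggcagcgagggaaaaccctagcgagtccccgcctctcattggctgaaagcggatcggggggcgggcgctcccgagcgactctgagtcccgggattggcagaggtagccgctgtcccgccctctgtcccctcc
Fmo2, chr1:162898709-162899008, minus strand: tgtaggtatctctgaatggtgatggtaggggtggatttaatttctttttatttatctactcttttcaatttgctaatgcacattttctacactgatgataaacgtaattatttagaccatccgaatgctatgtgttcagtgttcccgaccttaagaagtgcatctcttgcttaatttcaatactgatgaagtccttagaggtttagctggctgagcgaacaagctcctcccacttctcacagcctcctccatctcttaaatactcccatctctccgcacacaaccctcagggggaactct

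Genes set by a single library were counted by a fixed rule: 1 library differed from all other 5 by at least 1 on the log2 scale while those 5 spanned at most 1. The rule found 39 genes (0.366% of those tested). Estrus replicate 1 set 26 of them, 16 higher and 10 lower. Estrus replicate 2 set 4, estrus replicate 3 set 7 and diestrus replicate 3 set 2, while diestrus replicates 1 and 2 set 0.

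**Figure D4:**
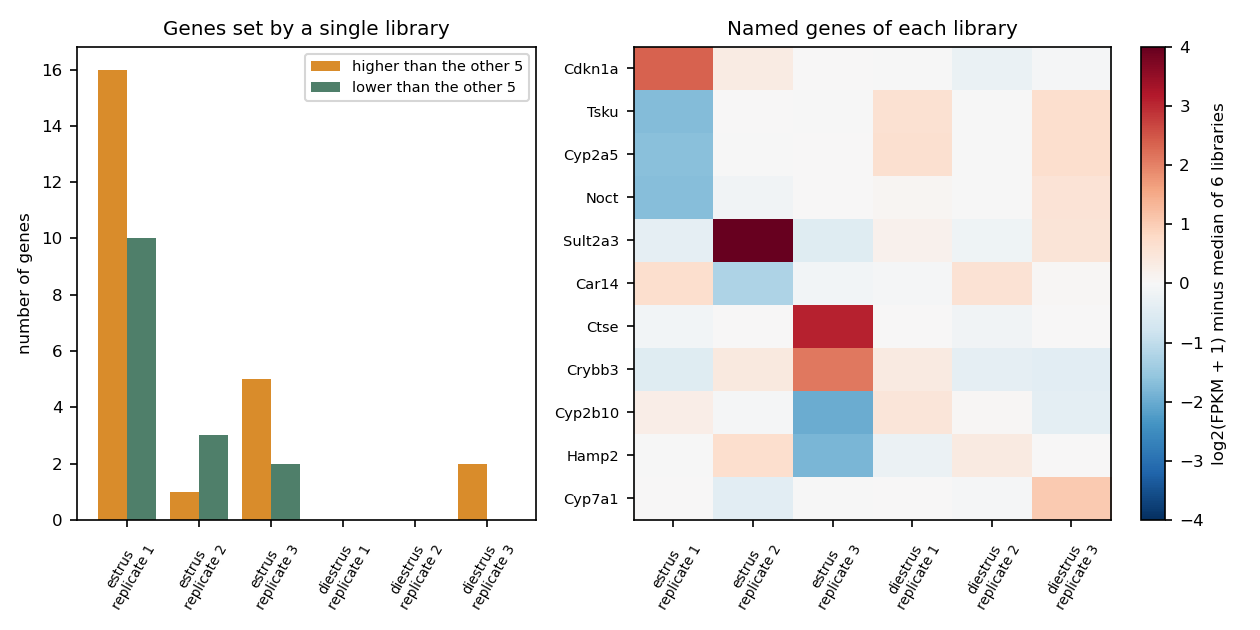
Left, the number of genes that each liver library set on its own, higher (orange) or lower (green) than the other 5 libraries, and right, the named genes of each library, coloured by log2(FPKM + 1) minus the median of the 6 libraries. Estrus replicate 1 set 16 genes higher and 10 lower, more than the other 5 libraries together.

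Among the genes that estrus replicate 1 set, Cdkn1a, the cell cycle inhibitor p21, was at 11.9, 2.13 and 1.55 FPKM in estrus and 1.46, 1.07 and 1.43 FPKM in diestrus. It met the criteria for a gene shared by all estrus mice (1.02 ± 0.57), but without estrus replicate 1 the difference was 0.29. Fgf21, a liver hormone of fasting, was at 3.72, 0.58 and 0.69 against 0.45, 0.06 and 0.72 FPKM, and Rnf125, a ubiquitin ligase, at 65.2, 23.2 and 22.7 against 16.4, 18.4 and 13.9 FPKM. On the lower side were Tsku, a secreted leucine-rich protein, at 12.8, 44.7 and 44.1 against 67.7, 44.2 and 72.1 FPKM, and Cyp2a5, coumarin hydroxylase, at 236, 747 and 774 against 1192, 747 and 1202 FPKM. Noct, a clock-controlled phosphatase, was at 8.81, 27.8 and 31.2 against 32.5, 30.4 and 45.6 FPKM. In these 3 genes the other estrus livers were near diestrus replicate 2. Fatty acid oxidation genes leaned the same way in this library, which held the highest value of 21 of 38, among them Acot1 (24.04, 8.66 and 7.36 against 8.25, 8.09 and 8.82 FPKM) and Pdk4 (4.04, 1.89 and 0.41 against 0.98, 0.72 and 0.72 FPKM). Over all libraries the median of that list was 0.01.

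Markers of endothelium and Kupffer cells were also low in estrus replicate 1, which held the lowest value of 31.9% of all tested genes. It held the lowest value of 12 of 12 markers of liver endothelium, whose summed level was 98.4, 203 and 147 FPKM in estrus and 185, 198 and 138 FPKM in diestrus. It held the lowest value of 10 of 12 Kupffer cell markers as well, but of 3 of 12 stellate cell and fibroblast markers, 1 of 5 neutrophil markers and 0 of 4 T and NK cell markers. In bulk tissue, fewer cells of a type and less RNA per cell cannot be told apart. Hepatocyte markers summed to 113611 FPKM there, the highest of the 6 libraries, with 88907 FPKM as the lowest. The part of cell composition in the single-library genes was not tested.

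Many acute phase genes were highest in estrus replicate 3. It held the highest value of 23 of 36 acute phase genes, 32 of 62 genes of complement and coagulation and 11 of 12 Kupffer cell markers. Lcn2, lipocalin 2, was at 24.4, 27.8 and 291 FPKM in estrus and 33.1, 12.4 and 24.4 FPKM in diestrus. Hp, haptoglobin, was at 1019.5, 1133 and 2991 against 1045, 669 and 1216 FPKM, and Saa1, serum amyloid A, at 50.1, 34.6 and 176 against 57.1, 25.2 and 42.9 FPKM. In all 3 genes estrus replicate 3 lay far above the other 5 livers. The S100a8 and S100a9 pair of neutrophil alarmins was also highest there, S100a9 at 1.43, 1.18 and 6.9 against 2.09, 1.19 and 1.2 FPKM. Ctse, cathepsin E, was at 0.06, 0.14 and 8.67 FPKM in estrus and 0.14, 0.03 and 0.14 FPKM in diestrus. Cyp2b10, a target of the receptor Car, and Hamp2, a hepcidin, were lowest in the same liver, Hamp2 at 1053, 1699 and 303 against 922, 1389 and 1097 FPKM. Hamp, hepcidin itself and an abundant member of the acute phase list, was also lowest there, at 2557, 2674 and 692 against 4055, 2194 and 1149.5 FPKM.

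The acute phase list as a whole had a median of 0.29, with 3 of 36 genes higher and 0 lower without overlap (8.33% and 0%), against 4.48% and 6.84% of all tested genes, and without estrus replicate 3 its median was 0.07. The 3 genes were Cp, Fgl1 and Il1rn. Cp, ceruloplasmin, was at 308, 251 and 379 FPKM in estrus and 227, 241 and 222 FPKM in diestrus (0.42 ± 0.15), and Fgl1, a secreted fibrinogen-like protein, at 497, 458 and 539 against 441, 256 and 334 FPKM (0.57 ± 0.19). Of 62 complement and coagulation genes, 46 had a positive fold change (74.2%, against 45.1% of all tested genes). The phases were separated by 4, all higher in estrus (6.45%, against 4.48% of all tested genes). The list's median was 0.09, or 0.03 without estrus replicate 3. The 4 were Cfb, Plg, C4bp and Hc. Plg, plasminogen, was at 887, 916 and 974 against 880.1, 865 and 786 FPKM, a step of 0.13 ± 0.08.

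Estrus replicate 2 and the diestrus livers had patterns of their own. Sult2a3, a sulfotransferase, was at 0.08, 22.97 and 0 FPKM in estrus and 0.59, 0.23 and 1 FPKM in diestrus, and Car14, a carbonic anhydrase, at 28.5, 6.93 and 16.1 against 16.9, 26.9 and 18.2 FPKM. Chaperones of the endoplasmic reticulum were highest in estrus replicate 2, Manf at 27.4, 87.2 and 33.5 against 61.1, 48.3 and 72.5 FPKM and Hyou1 at 19.9, 66.9 and 27.1 against 46.7, 37.4 and 53.8 FPKM, and the stress list had 13 of its 33 highest values there. Interferon-induced genes split diestrus. Of 41 tested genes, 37 were lowest in diestrus replicate 1 and 32 highest in diestrus replicate 3, with Ifit1 at 2.63, 9.6 and 12.1 FPKM in diestrus and 3.88, 7.53 and 4.81 FPKM in estrus. Their median between the phases was -0.01, and 0 of the 41 separated the phases, against 4.48% higher and 6.84% lower of all tested genes. Cyp7a1, the rate-limiting enzyme of bile acid synthesis, was at 55.6, 41.01 and 55.3 FPKM in estrus and 55.8, 54.1 and 116 FPKM in diestrus, high in diestrus replicate 3 alone.

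Cyp8b1, the sterol 12-alpha-hydroxylase that sets cholic acid in bile, was lower in most diestrus livers, at 137, 118 and 45.9 FPKM in estrus and 20.6, 47.3 and 27.9 FPKM in diestrus. Its log2 difference was 1.56 ± 0.46, and the fit of all libraries, where its SE was 0.19, called it (adjusted p = 2e-07). Even so, estrus replicate 3 lay below diestrus replicate 2. Onecut1 (Hnf6), a liver transcription factor, was at 1.56, 8.84 and 2.46 against 6.47, 23.1 and 6.89 FPKM (-1.34 ± 0.62, adjusted p = 6.26e-05 in that fit). Also called there were Clpx, a mitochondrial protease subunit, and Rgs3, a regulator of G protein signalling, which differed by 1.02 ± 0.49 and -1.15 ± 0.46, or 0.48 and -0.78 without estrus replicate 1. The phases overlapped in these 4 genes, while Alas1 and Insig2, also called there, separated all mice.

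Among other named genes without overlap, those higher in estrus were Arl4d, a small GTPase, at 22.3, 59.6 and 29.5 FPKM against 17.2, 7.25 and 15.4 FPKM in diestrus (1.37 ± 0.42), and Spon2, an extracellular matrix protein, at 9.23, 2.14 and 2.35 against 1.26, 1.59 and 0.53 FPKM (1.196 ± 0.46). Arl4d was highest in estrus replicate 2, and its difference was 1.67 without estrus replicate 1, while that of Spon2 was 0.64. Hhex, a homeobox factor of liver development, differed by 0.74 ± 0.14, Eps8l2 by 0.96 ± 0.34, Fam89a by 0.92 ± 0.32, or 0.58 without estrus replicate 1, and Gpat3, a glycerol-3-phosphate acyltransferase, by 0.72 ± 0.28. The uncharacterised Gm40814 and Gm7969 completed the 7 higher genes with a step of at least 1, with differences of 2.06 ± 0.57 and 1.09 ± 0.31.

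Lower in estrus were Nrep, at 3.95, 6.9 and 6.36 FPKM against 12.4, 26.7 and 16.2 FPKM in diestrus (-1.49 ± 0.29), and Slc15a2, a peptide transporter, at 0.42, 0.12 and 0.11 against 1.66, 3.15 and 1.64 FPKM (-1.35 ± 0.20). Tgm1, a transglutaminase, was at 3.62, 6.57 and 5.21 against 11.9, 12.5 and 11.1 FPKM (-1.10 ± 0.18). In all 3 genes the gap between the phases in FPKM was wider than the spread within estrus. For Nrep and Slc15a2 this gap was narrower than the spread within diestrus. Eif4ebp3, a repressor of cap-dependent translation, lay just inside the limit of 1 at 18.8, 21.6 and 16.7 against 42.1, 35.9 and 38.6 FPKM (-0.996 ± 0.11), with the second lowest adjusted p, 0.287. Without estrus replicate 1 the differences were -1.28, -1.46, -0.91 and -0.99. In kidney the same 4 genes gave -0.13, 0.03, 0.06 and 0.10, and the lowest adjusted p for a difference between the tissues, that of Slc15a2, was 0.571.

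Across the 25 gene lists, medians beyond 0.25 in either direction were reached by the Dbp-phase clock genes, the female-biased and male-biased genes, the acute phase genes and the genes of glucocorticoid and metal response. The last list had 23 tested genes, of which 2 were higher and 2 lower in estrus without overlap (8.7% each). Of all tested genes, the shares were 4.48% and 6.84%. The list had a median of 0.29, or 0.06 without estrus replicate 1. Its metallothionein Mt1 was at 606, 135 and 637 FPKM in estrus and 289, 61.2 and 399 FPKM in diestrus, low in replicate 2 of both phases. Sgk1, a kinase that glucocorticoids induce, was at 11.3, 11.1 and 16.8 against 9.79, 6.03 and 7.56 FPKM and separated the phases (0.68 ± 0.21). The other lists lay between -0.14 and 0.19. Periportal genes had a median of -0.14, with Cps1 the 1 of 16 genes without overlap (6.25% lower), and pericentral genes had a median of -0.02 over 22 genes.

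**Figure D5:**
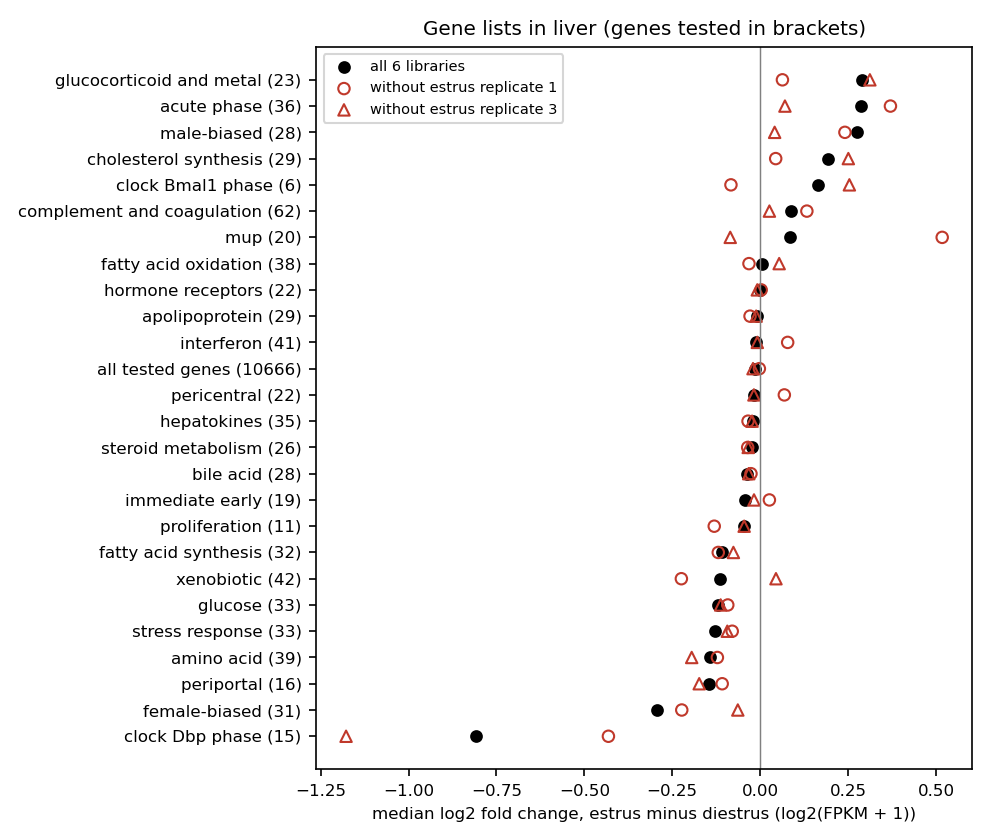
Median log2 fold change between estrus and diestrus, on the log2(FPKM + 1) scale, of each of the 25 gene lists and of all tested genes in liver, with all 6 libraries (black), without estrus replicate 1 (open circles) and without estrus replicate 3 (open triangles), and the number of tested genes in brackets. The Dbp-phase clock list moves from -0.81 to -0.43 and to -1.18, and the acute phase, male-biased and female-biased lists come near 0 without estrus replicate 3.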

How the data were processed

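RNA of 15 tissues from mice in estrus and diestrus was sequenced in 90 libraries, and the 6 liver libraries, with kidney for comparison, were used here. The authors filtered reads with SOAPnuke, aligned them with Bowtie2 (2.2.5 in the submitters' processing notes) to GRCm38.p5, estimated abundance with RSEM (1.2.8) and deposited FPKM of 20414 genes without counts. Whole reads could not be recovered: with steps fitted on 726 short genes, 55.4% to 69.5% of low values were whole within 0.15 reads. The study's DEGSeq test needs counts, so limma 3.58.1 (R 4.3.3) with an intensity trend was fitted on log2(FPKM + 1) of the 10666 liver genes that averaged 1 FPKM or more, with Benjamini-Hochberg adjustment and a log2 fold change limit of 1, and tested on simulated data. Liver and kidney were compared by the interaction of tissue and phase. Groups came from the sample labels. Tables and plots used Python 3.11.15, numpy 2.4.6, pandas 2.3.3 and matplotlib 3.10.9.

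Symbols, matched for 20265 genes, and promoters came from RefSeq (GRCm38.p6). Of 870 list symbols, 861 matched. Named genes were the 12 highest and 12 lowest fold changes among characterised genes without overlap of the phases, the 4 genes with the largest gap for each library, the 3 most abundant members of each list and those without overlap and a change of 0.5, and 21 fixed genes, of which those the results turn on are given. A few genes that the rules select are not reported here, though counts include them. Genes outside this rule (Fmo1, Por and others of the lists) were named after their values were seen. The members, lists and tests were chosen with earlier results of these data known. Alternatives covered the pseudocount, filter, scale, trend, limits, replicate block, all libraries in 1 fit, and each library left out.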

Additional observations from a re-analysis of the deposited data

How the results depend on the processing

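Alternatives changed counts more than directions. With all 6 libraries the number of DEGs was 0 under every alternative for pseudocount, filter, scale, trend, limit and replicate block, while leaving out 1 library gave 0 to 1, the 1 being Gm2573 without estrus replicate 2, and the fit of all 90 libraries gave 7. The 19 genes that separated the phases became 43 with the replicate block and 97 with a fold change limit of 0.5, and ranged from 22 without estrus replicate 1 to 53 without estrus replicate 3, with 47 without estrus replicate 2, 52 without diestrus replicate 2 and 36 without diestrus replicate 3. Fewer mice overlap less by construction. The 39 genes set by a single library became 67 with a pseudocount of 0.1, 23 with a mean of at least 5 FPKM and 11 with a gap of 1.5, and ranged from 26 without estrus replicate 1 to 68 without estrus replicate 2, with 61 and 59 without diestrus replicates 2 and 3. The replicate numbers did not pair the libraries: deviations of same-numbered livers correlated at 0.06, -0.02 and 0.13, so the paired fit is given only here. Of the 85 genes whose difference was recomputed under each alternative, 9 changed sign. Cyp17a1 went from -0.01 to 0.0101 on the median-of-ratios scale. With 1 library left out, Cyp17a1 ranged from -0.35 to 0.27, Sqle from -0.18 to 0.21, Nr1d1 from -0.26 to 0.27, Ghr from -0.11 to 0.0205, Pck1 from -0.33 to 0.19, Scd1 from -0.54 to 0.40, Gstm1 from -0.34 to 0.13, Fmo4 from -0.15 to 0.11 and Nfil3 from -0.037 to 0.95. The liver to kidney difference called 0 genes under each alternative. With 3 mice per phase and FPKM without counts, small or variable changes were not detectable, the spread may be partly technical, and no count model could be fitted.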

Other observations

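Genes of glucose handling and hepatokines, which the comparison above did not describe, varied widely among mice. G6pc, the last enzyme of glucose release, was at 231, 315 and 116 FPKM in estrus and 114, 171 and 72.6 FPKM in diestrus, with a log2 difference of 0.86 ± 0.43. Its phases overlapped at 1 library of each phase, since estrus replicate 3 lay below diestrus replicate 2. Igfbp1, a binding protein of insulin-like growth factors that insulin lowers, was at 72.6, 129 and 16.3 against 50.6, 3.66 and 31.7 FPKM (1.47 ± 1.05), and Ppp1r3c, a glycogen-targeting subunit, at 28.6, 14.3 and 13.3 against 7.6, 16.9 and 4.79 FPKM (0.96 ± 0.45, or 0.62 without estrus replicate 1). Angptl8, a hormone of the fed state, was at 45.1, 27.6 and 71.4 FPKM in estrus and 66.9, 195 and 124 FPKM in diestrus (-1.38 ± 0.46). In these 4 genes the differences were larger than 0.8 in either direction and none separated the phases. Of the 33 tested genes of the glucose list, 3 were lower (9.09%) and 1 higher (3.03%) in estrus without overlap, against 6.84% and 4.48% of all tested genes. Slc37a4 and Slc2a2 were among the lower, and Gpd1 was the higher. Slc2a2, the liver glucose transporter, was at 90.8, 99.5 and 101 against 117, 105 and 123.1 FPKM (-0.24 ± 0.09).

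Proliferation genes were few and low. Of 34 listed genes, 11 passed the filter, and Tyms, thymidylate synthase, was the 1 gene without overlap, at 7.67, 6.93 and 7.01 FPKM in estrus and 8.05, 8 and 8.28 FPKM in diestrus (-0.15 ± 0.07). That was 9.09% lower in estrus, against 6.84% of all tested genes. Ccnd1, cyclin D1, was at 17.5, 28.8 and 20.5 against 35.9, 27.8 and 40.9 FPKM (-0.64 ± 0.21), with estrus replicate 2 inside the range of diestrus. Of 19 immediate early genes, Ier2 was the 1 without overlap (5.26% lower, against 6.84% of all tested genes), at 13.98, 15.5 and 17.1 against 18.7, 24.6 and 19.5 FPKM (-0.40 ± 0.13).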
